A study of Sus scrofa with 12 samples.

Results

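Transcripts of 8 genes known for their work in the liver, AFP, ALB, TF, F2, CPS1, AHSG, AMBP and KNG1, were followed in fetal longissimus muscle of the pig. They were chosen by name, with earlier results of these data known. Each matched exactly 1 of the 19158 gene identifiers in the deposited table of mRNA reads. Fetuses came from Large White sows that received either a calorie-restricted diet (RE) or a normal diet (NE) after mating, and muscle was taken at 3 stages of gestation, 35, 55 and 90 dg (days of gestation). Each diet and stage was sequenced as 1 polyadenylated RNA library (RE35, NE35, RE55, NE55, RE90 and NE90) and 1 small RNA library. The fetuses selected for sequencing were 1 per sow, from 4 sows for each diet and stage, and the sources used here do not say whether RNA was pooled.

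In a fetus, hepatocytes secrete most of the proteins that circulate in plasma. Albumin (ALB) and alpha-fetoprotein (AFP) carry small molecules, transferrin (TF) carries iron, prothrombin (F2) and kininogen (KNG1) feed the coagulation and kinin systems, fetuin A (AHSG) holds calcium phosphate in solution, and AMBP encodes the precursor of alpha-1-microglobulin and bikunin. CPS1 is the mitochondrial enzyme that starts the urea cycle, and unlike the others it stays in the cell. Skeletal muscle is not known as a main source of any of them. In bulk RNA, fewer cells of a type and less RNA per cell cannot be told apart.

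The mRNA libraries held between 11091317 and 12985505 counts, over 15135 to 16301 genes with reads. Levels are given as CPM (counts scaled to library size, with TMM factors), and 3 counts, used here as the floor for a gene at 0, stood for 0.213 to 0.305 CPM. With 1 library per diet and stage, differences between 2 libraries have no replicate check and no p-value. Their 95% intervals, and the Poisson intervals of single values, cover counting error only. One library stood apart over all genes. NE35 held 36 genes with at least 1 CPM and no read in any of the other 5 libraries, out of 13634 genes with at least 1 CPM somewhere, whereas no other library held a single such gene. Markers of muscle were abundant everywhere, with 24870 summed CPM over 9 genes in NE35 and 47710 to 111700 in the other 5 libraries.

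The 8 genes fell into 4 patterns. KNG1, AFP, AMBP and AHSG had reads almost exclusively in NE35, with 98.7% to 100% of the CPM summed over the 6 libraries. TF and F2 were highest in NE35, which held 64.2% and 73.7% of their CPM, and were present at low levels in the others. CPS1 was high in both libraries of 35 dg, and ALB was nearly level across all 6. Together the 8 genes took 550 reads in RE35, 3608 in NE35, 271 in RE55, 206 in NE55, 211 in RE90 and 145 in NE90. All 8 reached 1 CPM in NE35, 2 in RE35, 4 in RE55, 4 in NE55, 3 in RE90 and 3 in NE90.

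**Figure D1:**
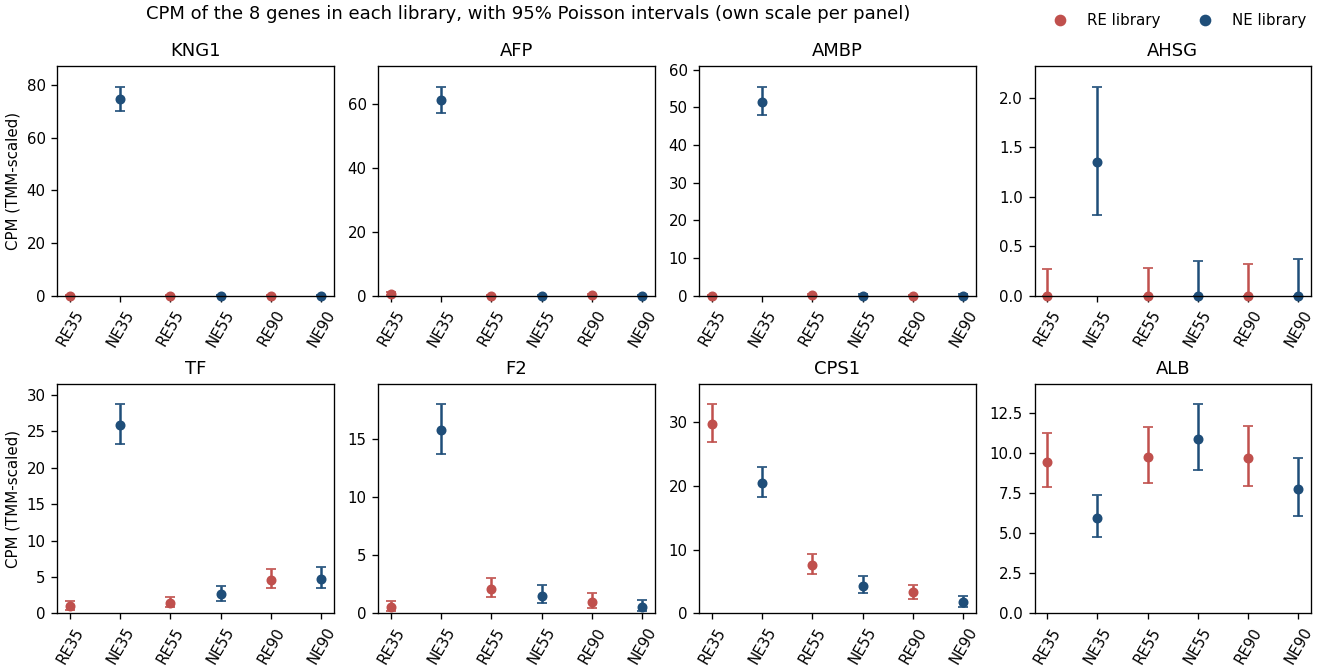
CPM of each of the 8 genes (vertical axis, own scale per panel) in the 6 libraries, with 95% Poisson intervals; red points are RE and blue points NE libraries. KNG1, AFP, AMBP, AHSG, TF and F2 peak in NE35, CPS1 is highest in RE35 and NE35, and ALB lies between 5.98 and 10.9 CPM throughout.

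KNG1, the source of bradykinin, had 0 reads in RE35, 1049 in NE35, 0 in RE55, 0 in NE55, 0 in RE90 and 0 in NE90. This is the clearest single-library pattern among the 8 genes, at 74.6 CPM in NE35 (95% interval 70.2 to 79.3) and 0 reads elsewhere. The floor of 3 counts stands for up to 0.305 CPM there, and the exact 95% intervals of 0 reads end at up to 0.375 CPM (NE90). On the RPKM scale, which divides by transcript length and allows levels of different genes to be compared, KNG1 was the highest of the 8 in NE35 at 57.8 RPKM, above 92.4% of the genes detected in that library.

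AFP, the main serum protein of early fetal life, had 8 reads in RE35, 859 in NE35, 0 in RE55, 0 in NE55, 2 in RE90 and 0 in NE90. Its level in NE35 was 61.1 CPM (57.1 to 65.3), and the 8 reads of RE35 stood for 0.599 CPM (0.259 to 1.18). At 34.2 RPKM in NE35 it was second to KNG1 and above 87.6% of detected genes. AFP was thus detected in both libraries of 35 dg, though at very different levels, and was at or below 2 reads at 55 and 90 dg.

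AMBP had 0 reads in RE35, 724 in NE35, 2 in RE55, 1 in NE55, 0 in RE90 and 0 in NE90, with 51.5 CPM (47.8 to 55.4) in NE35. The reads and RPKM of AMBP together imply a gene model of 5.6 kb, against 1.64 to 2.66 kb for the other plasma protein genes, so its 11.7 RPKM in NE35 is spread over a long model. AHSG was the weakest of the 8, with 19 reads in NE35 and 0 in RE35, RE55, NE55, RE90 and NE90. Those 19 reads stood for 1.35 CPM (0.814 to 2.11) and 1.04 RPKM, above 26% of the genes detected in NE35.

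TF had 13 reads in RE35, 364 in NE35, 18 in RE55, 28 in NE55, 52 in RE90 and 47 in NE90. After the peak of 25.9 CPM (23.3 to 28.7) in NE35 came the libraries of 90 dg, with 4.61 CPM in RE90 and 4.78 CPM in NE90, whose intervals overlap. RE35 was the lowest at 0.974 CPM (0.519 to 1.67), and its interval overlaps that of RE55 at 1.4 CPM. The RefSeq annotation of Sscrofa11.1 holds 2 adjacent genes named TF on chromosome 13, whereas reads were aligned to Sscrofa10.2. The deposited table pairs the symbol with 1 identifier. Whether reads of the 2 genes were split or discarded cannot be told from the counts.

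F2 had 7 reads in RE35, 221 in NE35, 27 in RE55, 16 in NE55, 11 in RE90 and 5 in NE90. Its 15.7 CPM (13.7 to 17.9) in NE35 were followed by 2.1 CPM (1.38 to 3.05) in RE55 and 1.51 CPM (0.863 to 2.45) in NE55, whose intervals overlap. F2 was near 0.5 CPM in RE35 and NE90, at 0.524 and 0.509 CPM.

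CPS1 had 396 reads in RE35, 288 in NE35, 98 in RE55, 46 in NE55, 37 in RE90 and 17 in NE90. Its levels were ordered by stage first and by diet within each stage, at 29.7 CPM (26.8 to 32.7) in RE35, 20.5 CPM (18.2 to 23) in NE35, 7.61 CPM (6.17 to 9.27) in RE55, 4.34 CPM (3.18 to 5.79) in NE55, 3.28 CPM (2.31 to 4.52) in RE90 and 1.73 CPM (1.01 to 2.77) in NE90. In that order the intervals overlap only between NE55 and RE90 and between RE90 and NE90. Beside ALB, CPS1 was the one gene of the 8 that reached 1 CPM in RE35, and RE35 held 44.2% of its summed CPM.

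ALB had 126 reads in RE35, 84 in NE35, 126 in RE55, 115 in NE55, 109 in RE90 and 76 in NE90. Its highest level was 10.9 CPM (8.96 to 13) in NE55 and the lowest 5.98 CPM (4.77 to 7.4) in NE35, where AFP and KNG1 peaked. The intervals of RE35, RE55, NE55, RE90 and NE90 overlap, and that of NE35 overlaps NE90 alone. In NE35 the level of ALB was 3.24 RPKM, below those of KNG1, AFP, TF, AMBP, F2 and CPS1, and above 43.1% of detected genes. In RE35 the order was different, with CPS1 at 5.56 RPKM and ALB at 4.66 RPKM as the leading genes, and TF, AFP and F2 at 0.42, 0.31 and 0.27 RPKM.

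The effect of maternal calorie restriction was compared first at 35 dg. Of the 8 genes, 6 were more than 2-fold lower in RE35 than in NE35 and none was more than 2-fold higher. Among all 13001 genes with at least 1 CPM in either library, 8.95% were more than 2-fold lower and 3.8% more than 2-fold higher. The 6 genes reached 1 CPM in NE35 and not in RE35, so their direction was bound by the filter, though not its size. KNG1 was at least 332-fold lower in RE35, AMBP at least 229-fold and AHSG at least 6.01-fold, taking 3 counts as the floor in RE35. The 95% counting intervals of these log2 ratios, which also carry the counting error of NE35, reach up to -8.07, -7.54 and -2.15. AFP was lower by 6.32 on the log2 scale of CPM with a prior count of 2 (log2 ratio -6.32, counting interval -7.89 to -5.69). TF and F2 had log2 ratios of -4.51 (-5.66 to -3.94) and -4.52 (-6.24 to -3.84). ALB and CPS1 went the other way within 2-fold, with log2 ratios of 0.65 (0.25 to 1.08) and 0.53 (0.31 to 0.76). The median over the 8 genes was -4.52, and that of all 13001 genes was 0.03. Because the 8 genes were chosen with earlier results of these data known, nothing is read from their contrast with all genes.

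At 55 and 90 dg no such contrast between the diets was seen. In RE55 against NE55, 4 of the 8 genes had at least 1 CPM in either library and none passed 2-fold, whereas 11.7% of 12536 genes were more than 2-fold lower and 9.05% more than 2-fold higher. TF had a log2 ratio of -0.85 (-1.86 to -0.02) there and F2 one of 0.43 (-0.47 to 1.46). In RE90 against NE90, 3 of the 8 were measured and none passed, against 7.18% of 12426 genes lower and 10.3% higher. ALB had log2 ratios of -0.15 (-0.53 to 0.23) at 55 dg and 0.32 (-0.11 to 0.76) at 90 dg, and a difference was not detectable at this depth. TF had one of -0.05 (-0.65 to 0.55) at 90 dg, whose sign changed with total-count scaling and with the deposited RPKM.

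CPS1 was higher in RE at each stage. Its log2 ratio of RE over NE was 0.53 at 35 dg, 0.79 (0.29 to 1.35) at 55 dg and 0.86 (0.06 to 1.84) at 90 dg, higher in RE in 3 of 3 stages and within 2-fold in each. Over the 3 stages as blocks, the quasi-likelihood test of edgeR gave CPS1 a log2 difference of 0.74 (standard error 0.356, adjusted p = 1), which did not pass. TF was lower in RE in 3 of 3 stages in TMM-scaled CPM, near 0 at 90 dg, where its sign depended on the scaling.

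**Figure D2:**
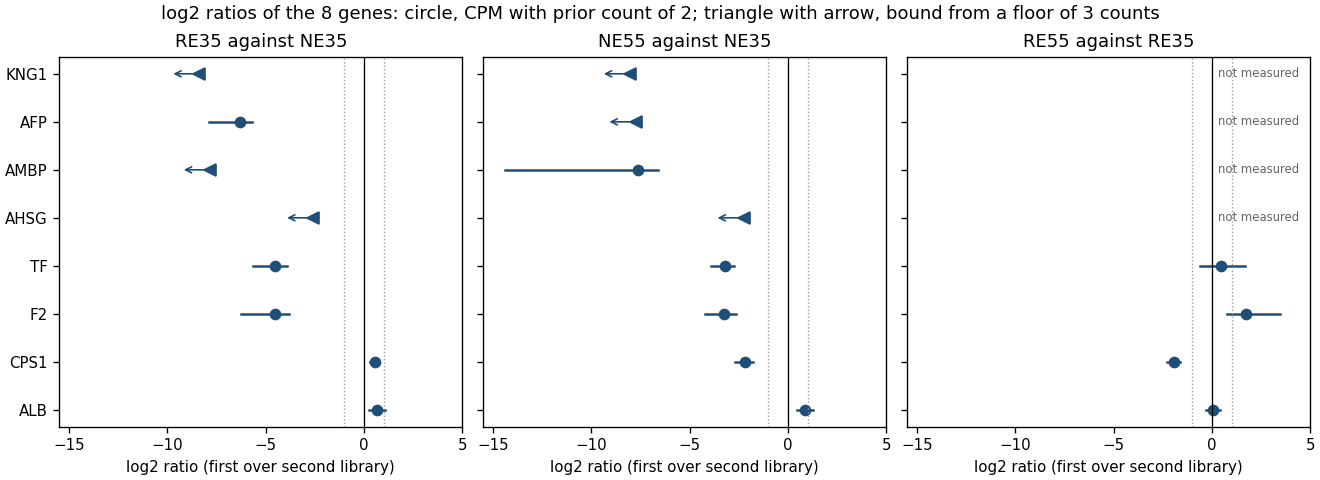
log2 ratios of the 8 genes (horizontal axis) in RE35 against NE35, NE55 against NE35 and RE55 against RE35, with 95% counting intervals; a triangle with an arrow is a bound from the floor of 3 counts, and dotted lines mark 2-fold. KNG1, AMBP, AFP, TF and F2 lie far to the left in both comparisons with NE35, while in RE55 against RE35, among the 4 genes with at least 1 CPM in either library, CPS1 alone is more than 2-fold lower.

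Development between 35 and 55 dg was compared within each diet. In NE55 against NE35, 7 of the 8 genes were more than 2-fold lower, against 17.2% of 13150 genes lower and 15.6% higher. Of the 7, 4 (KNG1, AFP, AMBP and AHSG) were under 1 CPM in NE55 and entered through NE35 alone, so their direction was bound by the filter. KNG1 was at least 263-fold lower in NE55, AFP at least 216-fold and AHSG at least 4.77-fold at the floor of 3 counts, with counting intervals of the log2 ratio up to -7.74, -7.45 and -1.81. AMBP, with 1 read in NE55, had a log2 ratio of -7.63 (-14.4 to -6.61). TF, F2 and CPS1 followed at -3.21, -3.24 and -2.19, and ALB was the exception at 0.84 (0.44 to 1.28). This comparison shares the NE35 library with the comparison of RE35 and NE35, so both carry the same high values. Here too nothing is read from the contrast with all genes.

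In RE55 against RE35, 4 of the 8 genes were measured, of which CPS1 was more than 2-fold lower and F2 more than 2-fold higher, against 8.47% of 12674 genes lower and 7.5% higher. CPS1 had a log2 ratio of -1.94 (-2.3 to -1.64), close to its -2.19 (-2.72 to -1.79) in the normal diet. F2 had 27 reads in RE55 and 7 in RE35 (log2 ratio 1.71, 0.76 to 3.44), and TF a log2 ratio of 0.45 (-0.59 to 1.67). F2 was under 1 CPM in RE35, at 0.524 CPM, and entered through RE55 alone, so its direction was bound by the filter. ALB had 126 reads in each (log2 ratio 0.05, -0.32 to 0.42). AFP, with 0 reads in RE55 and 8 in RE35, was under 1 CPM in both and at least 2.57-fold lower in RE55 at the floor of 3 counts, with a counting interval of the log2 ratio up to -0.72.

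From 55 to 90 dg, few of the 8 genes were measured. In NE90 against NE55, F2 and CPS1 were more than 2-fold lower among 4 measured genes, with log2 ratios of -1.31 (-3.37 to -0.06) and -1.25 (-2.22 to -0.50), against 13.2% of 12445 genes lower and 8.84% higher. F2 was under 1 CPM in NE90, at 0.509 CPM, and entered through NE55 alone, so its direction was bound by the filter. In RE90 against RE55, CPS1 was more than 2-fold lower and TF more than 2-fold higher among 4 measured genes, against 8.86% of 12578 genes lower and 9.84% higher. CPS1 had a log2 ratio of -1.17 (-1.80 to -0.65) there, and TF one of 1.61 (0.93 to 2.58), from 52 reads in RE90 and 18 in RE55. In NE90 against NE55 the log2 ratio of TF was 0.82 (0.15 to 1.58), within 2-fold.

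No diet and stage was replicated, so edgeR was fitted with diet and stage as additive factors. CPS1 was the single gene of the 8 that passed this test. It was lower at 55 than at 35 dg by 2.1 on the log2 scale (log2 difference -2.10, standard error 0.434, adjusted p = 0.0313 from the edgeR quasi-likelihood test), and was lower in 2 of 2 diets. Only 4 of the 8 genes, ALB, TF, F2 and CPS1, had the 1 CPM in at least 2 libraries that the test required, and 1.94% of the 12805 genes tested were called. The call for CPS1 was lost without NE35 (adjusted p = 0.606) and without RE35 (adjusted p = 0.124), at log2 differences of -1.97 and -2.26. TF and F2 had log2 differences of -2.08 (adjusted p = 0.384) and -1.56 (adjusted p = 0.69), and each was called without RE35 (adjusted p = 0.00122 and 0.0127) and without RE55 (adjusted p = 0.0114 and 0.0389). Without NE35 their differences turned to 0.73 and 2.04. ALB had a difference of 0.45 (standard error 0.451, adjusted p = 0.79).

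Between 90 and 55 dg edgeR called none of the 4 genes tested. CPS1 alone was at an unadjusted p under 0.05, with a log2 difference of -1.26 (adjusted p = 0.764 from edgeR). Of all genes 0% were called, although 684 of 12805 were at an unadjusted p under 0.05 and 47 were called by DESeq2. Between RE and NE over the stages edgeR again called none of the 4. TF alone was at an unadjusted p under 0.05, with a log2 difference of -1.76 (adjusted p = 1 from edgeR) that shrank to -0.50 without NE35. Here too 0% of all genes were called, with 303 at an unadjusted p under 0.05 and 3 called by DESeq2. DESeq2 called none of the 4 in either contrast.

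How far a gene was confined to NE35 was measured as the share of its summed CPM. KNG1, AHSG, AMBP and AFP, 4 of the 8, had at least 90% in NE35, against 1.25% of the 13634 genes with at least 1 CPM in any library, whose median share was 16.3%. These 4 reached 1 CPM in NE35 alone and were chosen with earlier results of these data known, so nothing is read from that contrast. KNG1 and AHSG belonged to the 36 genes with reads in NE35 alone. The 3 genes most like each member over the 6 libraries, by Pearson's r of log2 CPM among 9153 genes with a symbol, are given as a description, over 6 points only. Among the nearest to AFP were NHERF1 and AP1M2 (r = 0.99 each). Nearest to AMBP were CLDN16, INSL3 and AOC1 (r = 0.997 each), with 108, 82 and 204 reads in NE35 and none in RE35. KNG1 and AHSG shared ANXA10, BSND and C6orf52, which are the first by name among genes tied at r = 1, whose reads lie in NE35 alone. TF was nearest to AOAH, BLVRB and OCLN, F2 to GALC, ANKS4B and CYP27B1, CPS1 to TECPR1, CATSPERG and KIAA1755, and ALB to LINS1, DIS3L and KIAA0408 (r between 0.981 and 0.996 for all 12).

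Some of the 8 genes are neighbours on their chromosomes, which allows adjacent genes to be read side by side. AHSG, FETUB, HRG and KNG1 lie in a row on chromosome 13 and encode proteins of the cystatin superfamily. All had 0 reads in RE35, against 19, 5, 67 and 1049 reads in NE35. The genes on either side were level, with 1157 reads in RE35 and 967 in NE35 for DNAJB11, a chaperone of the endoplasmic reticulum, and 10452 in RE35 and 9577 in NE35 for EIF4A2, a translation factor. On chromosome 8, ALB and AFP are adjacent members of the albumin family, and of the genes there with at least 1 CPM at 35 dg, AFP alone passed 2-fold between the diets. ALB had 126 reads in RE35 and 84 in NE35, while AFP had 8 and 859, and the next gene AFM, afamin, had 4 and 0. GC, the vitamin D binding protein of the same family, had 0 reads in RE35 and 385 in NE35. Next to AMBP on chromosome 1, KIF12, a kinesin, had 14 reads in RE35 and 184 in NE35, and ZNF618 on the other side had 600 and 621. Among 27 neighbours of the 8 genes that had a row, 1 (HRG) had at least 90% of its CPM in NE35.

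**Figure D3:**
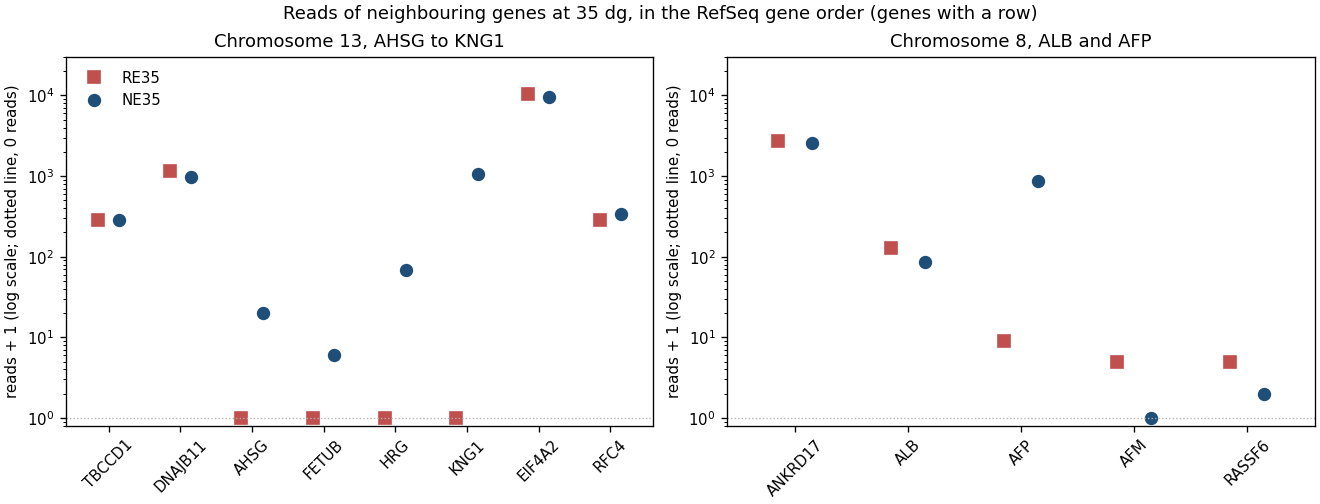
Reads plus 1 (vertical axis, log scale, dotted line at 0 reads) of adjacent genes in RE35 (red squares) and NE35 (blue circles), in the RefSeq gene order on chromosomes 13 and 8. AHSG, FETUB, HRG and KNG1 have reads in NE35 and none in RE35 while TBCCD1, DNAJB11, EIF4A2 and RFC4 are level, and on chromosome 8 AFP differs while ALB and ANKRD17 do not differ by 2-fold.

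Other genes of the liver were compared from gene lists, which were also chosen with earlier results of these data known. Of 53 further plasma protein genes listed, 40 had a row, and 18 of these had at least 1 CPM in either library of 35 dg. RE35 was more than 2-fold lower for 12 of the 18 and higher for 2 (median log2 ratio -2.30). Of all genes, 8.95% were lower and 3.8% higher. Of the 12, 10 were under 1 CPM in RE35 and entered through NE35 alone. The 3 with the highest summed CPM, a scale that favours long transcripts, were CP, the copper-carrying ferroxidase ceruloplasmin, with 125 reads in RE35 and 124 in NE35, RBP4, the retinol carrier, with 115 and 231, and CFI, which cuts complement C3b, with 76 and 330. Beside GC and HRG, the protease inhibitor SERPINC1 had 2 reads in RE35 and 76 in NE35. Several defining products of hepatocytes had few or no reads in NE35. APOB, the core of liver lipoproteins, and APOA2 had 0 reads in all 6 libraries, TTR had 0 in RE35 and 3 in NE35, and the fibrinogen chain FGB had 5 in RE35 and 2 in NE35. APOA1 had 7 reads in RE35 and 5 in NE35. For APOB and APOA2 the counts do not tell an absent transcript from a gene model that takes no reads. Other genes of the list had more reads in NE35, such as F10 (21 in RE35 and 135 in NE35), CPB2 (11 and 114) and PROC (11 and 105). The data thus hold reads of some plasma protein genes in NE35 and few or none of others. No name is given here to the cells that held them.

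CPS1 was set beside the other genes of the urea cycle. Of 6 with a row, 3 were more than 2-fold lower in RE35 and none higher, where 8.95% of all genes were lower and 3.8% higher. Of the 3, 1 was under 1 CPM in RE35 and entered through NE35 alone. ASL, argininosuccinate lyase, had 178 reads in RE35 and 333 in NE35 (log2 ratio -0.82), ASS1 had 30 and 204 (-2.60), and the mitochondrial carriers SLC25A13 and SLC25A15 had 173 and 346 (-0.92) and 105 and 305 (-1.44). ARG1, the arginase of liver, had 18 reads in RE35 and 20 in NE35. In the edgeR test of 55 against 35 dg, 5 of these genes were tested and none passed, so CPS1 was the one gene of the cycle called.

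Among genes of hepatocyte metabolism, 5 were measured at 35 dg and 4 were more than 2-fold lower in RE35. Of all genes, 8.95% were lower there. Of the 4, 3 were under 1 CPM in RE35 and entered through NE35 alone. PCK1, which controls gluconeogenesis in liver and kidney, had 3 reads in RE35 and 617 in NE35, and AGXT, a peroxisomal transaminase, had 37 and 268. CYP7A1, the rate-limiting enzyme of bile acid synthesis, had 0 reads in RE35 and 3 in NE35, with its most reads in RE55 (19) and NE55 (17). CYP2E1 was at 0 in all 6 libraries, and the hepatocyte lectin ASGR1 had 1 read, in NE90. Among 13 transcription factors of liver, 7 were measured at 35 dg. Of these, 5 were more than 2-fold lower in RE35 and none higher (median log2 ratio -3.49), beside the same 8.95% of all genes lower. All 5 were under 1 CPM in RE35 and entered through NE35 alone. HNF4A had 8 reads in RE35 and 580 in NE35. NR5A2 was level, with 63 and 54 reads.

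Markers of another organ moved with the plasma protein genes. Of 22 kidney and mesonephros genes with a row, 16 had at least 1 CPM at 35 dg. Of these, 15 were more than 2-fold below NE35 in RE35 (median log2 ratio -5.12), where 8.95% of all genes were lower. Of the 15, 10 were under 1 CPM in RE35 and entered through NE35 alone. The summed level of the list was 105.4 CPM in RE35 and 699.7 CPM in NE35, and 95.68 to 139.3 CPM in the libraries of 55 and 90 dg. Most of it outside NE35 came from DAB2, an endocytic adaptor that is not limited to kidney, with 1222 reads in RE35 and 1903 in NE35 (log2 ratio -0.56). The other 21 genes summed to 13.86 CPM in RE35 and 564.5 CPM in NE35, and to 8.446 to 13.31 CPM in the libraries of 55 and 90 dg. CDH16, the cadherin of kidney tubules, had 0 reads in RE35 and 1604 in NE35. CUBN, the receptor that takes filtered TF and ALB protein back into tubule cells, had 55 reads in RE35 and 564 in NE35, whereas TFRC, the receptor for TF on dividing cells, had 127 and 170. SLC5A2 and UMOD, markers of mature kidney, were at or near 0, with 0 and 4 reads in NE35. The part of the kidney list in the levels of KNG1, AFP, AMBP, AHSG, TF and F2 was not tested. Blood was present in every library, with 1760 reads of the globin HBB in RE35 and 2797 in NE35 (log2 ratio -0.59).

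**Figure D4:**
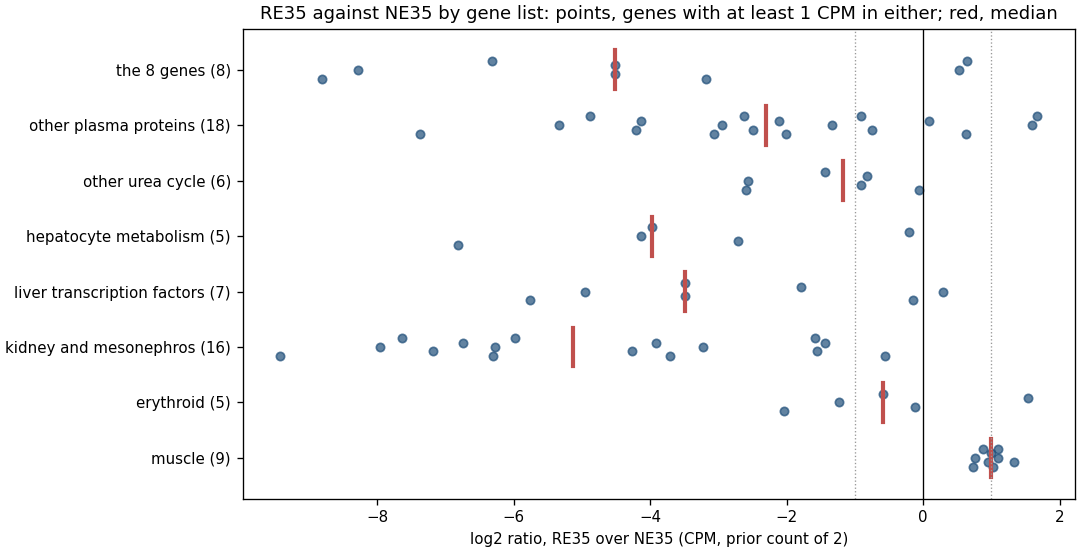
log2 ratio of RE35 over NE35 (horizontal axis) for genes of each list with at least 1 CPM in either library (points, number in brackets) and the list median (red bar); dotted lines mark 2-fold. The 8 genes have a median of -4.52, kidney and mesonephros genes -5.12, hepatocyte metabolism genes -3.97, other plasma protein genes -2.30, and muscle genes 0.99.

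Small RNA libraries gave a readout that the choice of the 8 genes did not use. miR-122, by far the most abundant miRNA of hepatocytes, had 27 reads in RE35, 13 in NE35, 3 in RE55, 2 in NE55, 0 in RE90 and 2 in NE90. Scaled to all miRNA reads of the library (RPM), this was 9.24 (6.09 to 13.4) in RE35 and 8.54 (4.55 to 14.6) in NE35, where the intervals overlap and the level was not raised in NE35 as those of AFP and KNG1 were. The 0 reads of RE90 allow up to 0.787 RPM at the floor of 3 counts, and the exact 95% interval drawn in the plot of RPM ends at 0.968. miR-192, which is shared by liver, kidney and gut, had 57 reads in RE35, 3442 in NE35, 21 in RE55, 25 in NE55, 35 in RE90 and 24 in NE90 (log2 ratio of RE35 over NE35 -6.86, -7.26 to -6.48). Its cluster partner miR-194b-5p had 78 reads in RE35 and 3388 in NE35, and 34 to 80 reads in the other 4 libraries. miR-206, a miRNA of muscle, was the most abundant of those examined, at 25220 RPM in RE35 and 15910 RPM in NE35. miR-215, which shares its seed family with miR-192, had 5 reads in RE35 and 6 in NE35 (log2 ratio -1.20, -3.25 to 0.77), and a difference was not detectable at this depth. Against RE35, NE35 thus stood apart in small RNA by miR-192 and miR-194b-5p, and not detectably by miR-122 or miR-215. Between stages, miR-122 was lower in NE55 than in NE35 (log2 ratio -3.71, -6.9 to -1.57). It was also lower in RE55 than in RE35 (-2.64, -5.0 to -0.94). miR-215 was lower in NE55 than in NE35 (-3.6, -9.12 to -0.55). In RE55 against RE35 it had 0 and 5 reads, with an interval up to 0.66.

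**Figure D5:**
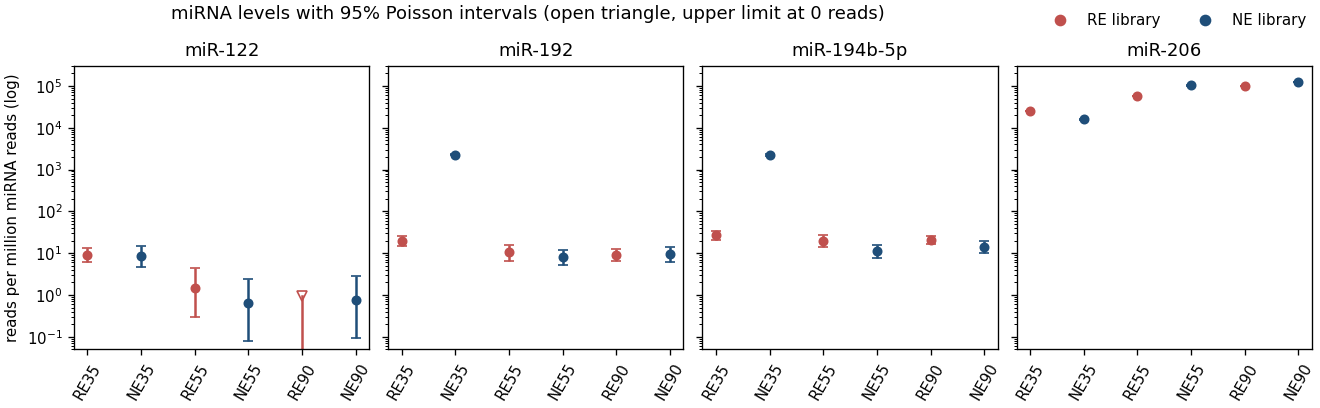
RPM (vertical axis, log scale) of miR-122, miR-192, miR-194b-5p and miR-206 in the 6 small RNA libraries, with 95% Poisson intervals; the open triangle is the upper limit at 0 reads. miR-192 and miR-194b-5p peak in NE35 at 2261 and 2226, and miR-122 lies at 9.24 in RE35 and 8.54 in NE35.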

How the data were processed

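The authors trimmed reads with the FASTX-Toolkit and aligned mRNA reads to the pig genome Sscrofa10.2 with TopHat2. Only reads with a unique location were counted, and the counts per gene were deposited together with RPKM. The small RNA table holds counts of each miRNA, and the deposited TPM are relative to all miRNA reads. Bowtie is also named in the submitters' processing notes. Columns named SE were read as RE. Whether counting used strand is not given in the sources used here. Symbols were found for 11010 of 19158 identifiers. Gene order came from RefSeq (Sscrofa11.1), for names only, with 3 coding neighbours on each side.

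Computed here were TMM-scaled CPM, log2 ratios with a prior count of 2, exact conditional binomial and Poisson intervals of 95%, and edgeR's quasi-likelihood test (diet and stage as additive factors, at least 1 CPM in at least 2 libraries, 2 residual degrees of freedom, Benjamini-Hochberg adjusted p under 0.05), which was checked on simulated data. No diet and stage has a replicate, so the residual of the fit is the departure of single libraries from additive effects of diet and stage. Its p-values are set against that departure and not against variation between replicates. A gene was compared between 2 libraries with at least 1 CPM in either. Software was R 4.3.3, edgeR 4.0.16, DESeq2 1.42.0 and Python 3.11.15. The deposited TPM and RPKM, other scalings, filters and prior counts, DESeq2 and leaving out each library were alternatives.

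The members and the gene lists were chosen with earlier results of these data known. Genes named are the 8 members, up to 3 genes per list with the highest summed CPM, and for each member the 3 genes with the highest r. Some genes that this rule names are not reported here. FETUB, HRG, GC, AFM, KIF12, ZNF618, TBCCD1, RFC4, SERPINC1, F10, CPB2, PROC, APOB, APOA1, APOA2, TTR, FGB, ASS1, ARG1, CYP2E1, ASGR1, CUBN, TFRC, SLC5A2, UMOD, HBZ and miR-215, and the sum without DAB2, were chosen after their values were seen.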

Additional observations from a re-analysis of the deposited data

Results flagged for a closer look

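F2 changed in opposite directions between 35 and 55 dg in the 2 diets. Its log2 ratio was 1.71 in RE55 against RE35 and -3.24 in NE55 against NE35, each past 2-fold with a counting interval that leaves out 0. F2 was under 1 CPM in RE35 and entered the restricted-diet comparison through RE55 alone, so its direction there was bound by the filter. Every group is 1 library, so the difference between the diets was not tested. F2 had 27 reads in RE55 and 7 in RE35, and 16 in NE55 and 221 in NE35, so the libraries of 55 dg lie closer together than those of 35 dg.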

How the results depend on the processing

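The 6 genes more than 2-fold lower in RE35 than in NE35 and the 7 lower in NE55 than in NE35 kept those numbers under total-count and DESeq2 scaling, deposited RPKM, both other prior counts and no filter. Total counts in place of TMM shifted every log2 ratio by -0.418 (NE55 against NE35) to 0.32 (RE90 against NE90). Of 39 single ratios of genes and miRNAs, 36 kept their sign under every setting, and the 3 others lay near 0 (TF in RE90 against NE90, ALB in RE55 against RE35 and in RE90 against RE55). Counts over the 8 genes that moved were few. In RE90 against NE90, 1 gene was more than 2-fold higher with total counts (CPS1) and 1 without a filter (AFP), against 0. In RE90 against RE55, 2 were lower with total counts and 2 with a prior count of 0.5, against 1. Without a filter, 2 were lower in RE55 than in RE35 and 2 higher in RE90 than in RE55, against 1 each. In edgeR, the genes called at 55 against 35 dg numbered 3 when 1 CPM in 1 library sufficed and 4 without a filter, against 1, and for RE against NE 3 were called without a filter, against 0. Leaving out 1 library gave 0 to 3 for 55 against 35 dg. These filters admit AFP, KNG1 and AMBP, whose reads lie in NE35. All genes called at 55 against 35 dg numbered 249, against 65 without NE35, 406 without NE55, 1369 without RE55, 544 without NE90, 566 without RE90, 688 without a filter and 532 with DESeq2. For 90 against 55 dg and for RE against NE, where edgeR called 0 of all genes, the settings gave 0 to 180 and 0 to 67. The test of RE against NE already has stage as its block. No paired analysis by replicate number was possible because each diet and stage has 1 library. AHSG, with 19 reads in all, is the gene for which depth limits most.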

Other observations

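Of 3 steroidogenic genes measured at 35 dg, 2 were more than 2-fold lower in RE35, where 8.95% of all genes were lower. Both were under 1 CPM in RE35 and entered through NE35 alone. These were the enzymes CYP11A1 and CYP17A1, with 0 and 0 reads in RE35 and 117 and 116 in NE35. INHA, the other gene measured, had 15 reads in RE35 and 19 in NE35 (log2 ratio -0.23). VIL1, villin of brush borders, had 0 reads in RE35 and 443 in NE35. CDH17, a cadherin of gut epithelium, had 8 reads in RE35 and 23 in NE35, and CDX2, a transcription factor of gut, had 2 and 1. CDX2 was chosen after its values were seen.

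Genes that act on or with the 8 proteins were compared as well. Of 8 measured at 35 dg, 3 were more than 2-fold lower in RE35 and 1 higher, against 8.95% of all 13001 genes lower and 3.8% higher. ECE1, a protease that cleaves kinins, had 813 reads in RE35 and 1024 in NE35, and TFPI2, an inhibitor of serine proteases, had 225 and 201. ACE, which degrades bradykinin made from KNG1, had 77 reads in RE35, 414 in NE35, 417 in RE55, 143 in NE55, 449 in RE90 and 321 in NE90. HBZ, an embryonic globin, was the one erythroid gene called at 55 against 35 dg by edgeR and had 109 reads in RE35 and 38 in NE35, against 2 to 5 in the libraries of 55 and 90 dg. It was lower at the later stage, as CPS1 was, and like CPS1 had its most reads in RE35.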
